A study of Mus musculus with 8 samples.

Results

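The insulin-like growth factor (IGF) axis was described through 8 genes: the ligand Igf1, its receptor Igf1r, and the binding proteins Igfbp2, Igfbp3, Igfbp4, Igfbp5, Igfbp6 and Igfbp7. Its members were all non-control probes of the array to which the files give the name of one of these genes, 14 probes out of 41174 (8 of 27962 gene names). RNA of R1 cells, a line of mouse embryonic stem cells, was hybridised to 4 Agilent whole-genome mouse arrays of 2 colours. In the 4 butyrate samples the cells were kept for 15 passages without leukaemia inhibitory factor (LIF) in sodium butyrate at 0.2 mM; butyrate is a fatty acid of gut bacteria and an inhibitor of histone deacetylases. In the 4 LIF samples they were kept in LIF, the cytokine that holds these cells undifferentiated, without feeder cells. Gelatin-coated plates and DMEM with a serum replacer were used for both groups. The design text of the series names the presence or absence of LIF and no butyrate; the groups here follow the sample labels, and the labels leave the passage number of the LIF cells unclear. On each array a butyrate sample in Cy5 met the equally numbered LIF sample in Cy3. The effects of dye and treatment therefore cannot be told apart. The labels name 1 cell line and no separate derivations, so p-values cover the variation among these samples alone, and that may be technical in part.

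IGF1 is a secreted hormone that binds a receptor tyrosine kinase, IGF1R, and through insulin receptor substrates activates the PI3K, AKT and mTOR kinases and the ERK pathway, which promote growth and survival. Most of the ligand outside cells is held by binding proteins, which carry it, keep it from the receptor or, after cleavage by proteases, release it. IGFBP7 is a relative that binds IGF weakly. In mouse embryonic stem cells and in the early embryo, IGF signalling supports proliferation and self-renewal, and fibroblasts, a common feeder layer, are a known source of its ligands and binding proteins.

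The promoter windows of 4 binding protein genes are shown because these genes carry the main contrasts below: Igfbp5, Igfbp7 and Igfbp3 were at least 2-fold higher in butyrate on the scale used here, and Igfbp2 lies beside Igfbp5 on chromosome 1 with a small ratio. Each window runs from 250 bases before to 50 after a start annotated for the gene and comes from RefSeq on build GRCm38.p6: chr1:72874816-72875115 (minus strand) for Igfbp5, chr5:77407996-77408295 (minus strand) for Igfbp7, chr11:7213874-7214173 (minus strand) for Igfbp3 and chr1:72824230-72824529 (plus strand) for Igfbp2. The Igfbp3 window lies inside the span of the gene given below, so it does not cover the outermost start. Capitals mark the GC box GGGCGG and the motif TATAAA, searched on both strands.
Igfbp5: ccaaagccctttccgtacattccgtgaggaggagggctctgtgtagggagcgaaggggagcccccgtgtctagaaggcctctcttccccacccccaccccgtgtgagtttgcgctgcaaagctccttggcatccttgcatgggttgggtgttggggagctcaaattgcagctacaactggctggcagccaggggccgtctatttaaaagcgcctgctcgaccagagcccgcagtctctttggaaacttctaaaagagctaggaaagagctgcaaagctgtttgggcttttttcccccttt
Igfbp7: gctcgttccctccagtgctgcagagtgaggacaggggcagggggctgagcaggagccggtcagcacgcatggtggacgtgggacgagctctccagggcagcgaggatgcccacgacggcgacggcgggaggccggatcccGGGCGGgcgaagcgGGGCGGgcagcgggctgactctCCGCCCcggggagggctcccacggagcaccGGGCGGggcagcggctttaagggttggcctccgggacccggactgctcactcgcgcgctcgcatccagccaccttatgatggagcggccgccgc
Igfbp3: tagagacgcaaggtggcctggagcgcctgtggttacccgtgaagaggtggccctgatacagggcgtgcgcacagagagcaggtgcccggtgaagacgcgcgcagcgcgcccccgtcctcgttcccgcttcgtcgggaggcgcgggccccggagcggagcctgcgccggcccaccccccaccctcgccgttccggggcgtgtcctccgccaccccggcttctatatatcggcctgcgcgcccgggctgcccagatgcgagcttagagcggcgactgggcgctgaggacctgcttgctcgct
Igfbp2: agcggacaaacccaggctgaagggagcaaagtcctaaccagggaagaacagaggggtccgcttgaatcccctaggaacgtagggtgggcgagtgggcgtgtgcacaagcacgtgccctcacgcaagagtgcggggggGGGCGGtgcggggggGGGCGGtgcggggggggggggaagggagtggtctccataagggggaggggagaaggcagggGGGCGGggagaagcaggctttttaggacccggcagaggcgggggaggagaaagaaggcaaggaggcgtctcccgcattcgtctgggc

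All 8 genes matched a RefSeq promoter, in 9 windows, since Igfbp2 has 2. The Igfbp7 window held 4 GC boxes, the Igfbp2 window shown held 3 and the Igf1r window 2. No GC box lay in the windows of Igfbp3, Igfbp4, Igfbp5, Igfbp6 or Igf1. The windows of Igfbp3, Igfbp4 and Igf1 and the other window of Igfbp2 lie inside the gene spans given below. For Igfbp3, Igfbp4 and Igf1 the outermost start was therefore not searched. Of 32851 mouse promoter windows of this length, 35.7% held a GC box. TATAAA was found in the windows of Igfbp4 and Igfbp6 and in 13.6% of all windows, and the 2 motifs did not overlap. A match is a description of the letters in these windows only.

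Across the axis, every measured gene was higher in butyrate. Of the 14 probes, 10 were tested, having a signal well above background in one channel or the other on 3 arrays or more; they stand for 7 genes, all but Igf1. With limma and Benjamini-Hochberg adjustment over all 25661 tested probes, 10 of these 10 passed an adjusted p of 0.05 with a higher signal in butyrate, beside 39.7% of all tested probes (72.2% in either direction). In all 10 probes the 4 butyrate signals lay above the 4 LIF signals, as they did in 36.7% of all tested probes. The median log2 ratio of the 10 probes was 0.54, beside 0.03 over all tested probes. The changes were of unequal size: 3 probes, of Igfbp5, Igfbp7 and Igfbp3, were at least 2-fold higher, as were 4.1% of all tested probes, and the other 7 lay under 1.6-fold. That count depends on the source of the values: 7 probes of 6 genes were at least 2-fold higher by the scanner software's log ratio (10.7% of all tested probes) and by the authors' value table (10.2%), and 4 probes with centring on the median (14%). Of the 10 probes, 9 met the brightness limit in both channels, and 1 probe of Igf1r met it in the butyrate channel only.

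**Figure D1:**
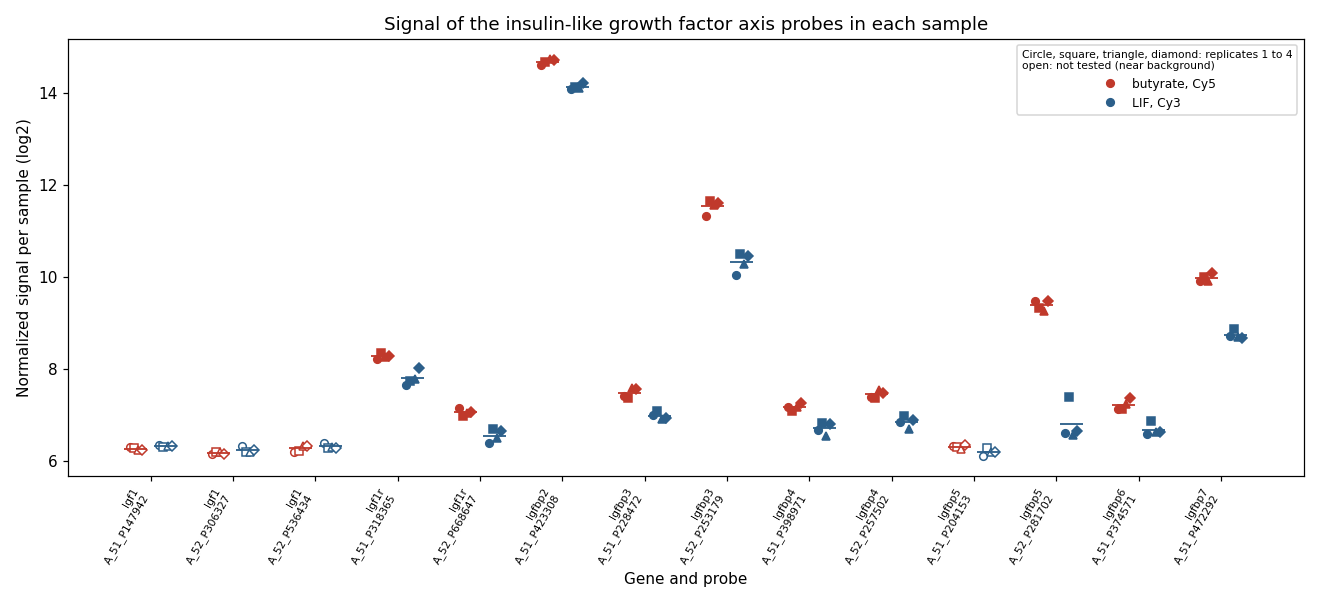
Normalized log2 signal (vertical axis) of each of the 14 probes of the IGF axis (horizontal axis) in the 4 butyrate samples (red, left) and the 4 LIF samples (blue, right). Bars are group means and open symbols are probes that were not tested. In each of the 10 tested probes the butyrate points lie above the LIF points, and the 3 Igf1 probes lie near the lower limit of the scale; levels of different probes cannot be compared.

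The ligand Igf1, on chromosome 10 (87858265 to 87937047, GRCm38.p6), was not well above background in any sample. Its probe A_51_P147942 was printed as 10 spots, and none of 40 spots in butyrate and none of 40 spots in LIF were well above background over the 4 arrays. The array means of its mean signal were 57.9 to 60.1 in butyrate, over a local background of 48.8 to 51 there, and 46.8 to 47.8 in LIF, over a local background of 43.1 to 47.7. The single spots of the probes A_52_P306327 and A_52_P536434 were not well above background either. No fold is given for Igf1, since both groups lay at the background.

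Igf1r, the receptor that passes the IGF signal into the cell, lies on chromosome 7 (67952257 to 68233668) and was higher in butyrate in both of its probes. Probe A_51_P318365 had log2 signals of 8.22, 8.35, 8.25 and 8.28 in butyrate, against 7.65, 7.74, 7.78 and 8.02 in LIF. The groups did not overlap, and LIF replicate 4 came nearest to the butyrate samples. The difference was 1.39-fold (log2 ratio 0.48 ± 0.15, SD, n = 4 arrays; limma adjusted p = 0.000109). Probe A_52_P668647 had log2 signals of 7.14, 6.98, 7.04 and 7.06 in butyrate, against 6.39, 6.68, 6.49 and 6.64 in LIF, a ratio of 0.50 ± 0.20 (SD, n = 4 arrays; limma adjusted p = 0.000224). It was well above background on 4 arrays in butyrate and on 1 array in LIF, so its fold depends on how background is treated: it was 1.42-fold, and 3.86-fold by the scanner software's log ratio. A further 2 probes, listed under the older names A330103N21Rik and D930020L01 that the reference gives as synonyms of Igf1r, were not members and had ratios of 0.71 ± 0.29 and 0.46 ± 0.14 (SD, n = 4 arrays).

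Igfbp5 showed the largest difference of the axis, as it did by the scanner software's log ratio and by the authors' value table. It encodes a binding protein that attaches to extracellular matrix and is made by bone, muscle and connective tissue cells, and lies on chromosome 1 (72858065 to 72874865). The unprocessed mean signals of probe A_52_P281702 were 870.7, 814.1, 736.8 and 861.8 in butyrate, over local backgrounds of 46 to 50, against 51.1, 51.2, 53.1 and 54.2 in LIF, over local backgrounds of 40 to 51. The LIF samples thus lay just above background, and 3 of the 4 were well above it by the scanner's rule. After normalization its log2 signals were 9.49, 9.33, 9.27 and 9.48 in butyrate, against 6.61, 7.39, 6.56 and 6.65 in LIF. The ratio was 6.02-fold (2.59 ± 0.44, SD, n = 4 arrays; limma adjusted p = 8.43e-07), the 35th highest of the 25661 tested probes. By the scanner software's log ratio it was 31.2-fold (4.96 ± 0.15). The offset of 50 that was added before normalization understates the folds of dim signals by construction.

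The ratio of Igfbp5 was 1.94 on array 2, against 2.88, 2.71 and 2.83 on arrays 1, 3 and 4, and LIF replicate 2 stood apart from the other LIF samples after normalization. The unprocessed signal of that sample, 51.2, lay between those of the other LIF samples. By the scanner software's log ratio array 2, at 5.00, lay among the other arrays, at 5.16, 4.81 and 4.88. Without replicate 2 the ratio was 2.81. The other probe of Igfbp5, A_51_P204153, was not well above background in any sample. Its mean signals were 59.6 to 63.8 in butyrate and 41.8 to 44.0 in LIF, where the local background was 45 to 51.5, and its ratio of 0.12 ± 0.09 (SD, n = 4 arrays) was not tested. The files assign both probes to the same transcript, and their ratios did not overlap.

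Igfbp2 encodes a binding protein that is abundant in embryonic tissues and carries a sequence for attachment to integrins. It lies on chromosome 1 (72824480 to 72852474), with 5590 bases between it and Igfbp5, and the 2 genes run towards each other on opposite strands. Its probe A_51_P423308 had log2 signals of 14.61, 14.67, 14.75 and 14.72 in butyrate, against 14.10, 14.14, 14.11 and 14.23 in LIF. No spot was saturated, and the 4 arrays gave nearly the same ratio, 0.49 to 0.64. It was 1.46-fold higher in butyrate (0.54 ± 0.07, SD, n = 4 arrays; limma adjusted p = 5.1e-06). The tested probes of the neighbours Igfbp5 and Igfbp2 thus moved the same way by different amounts. The ratios of Igfbp5 probe A_52_P281702 on the 4 arrays all lay above those of Igfbp2. Those of Igfbp5 probe A_51_P204153, not well above background in any sample, all lay below them, at 0.04 to 0.23.

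Igfbp3, on chromosome 11 (7206086 to 7215498), encodes the main carrier of IGF in blood, which can also restrain growth without binding IGF. Its brighter probe, A_52_P253179, had log2 signals of 11.32, 11.65, 11.56 and 11.61 in butyrate, against 10.04, 10.51, 10.28 and 10.46 in LIF. It was 2.32-fold higher (1.22 ± 0.08, SD, n = 4 arrays; limma adjusted p = 9.24e-08), with ratios of 1.14 to 1.28. The dimmer probe, A_51_P228472, had log2 signals of 7.41, 7.36, 7.59 and 7.57 in butyrate, against 6.99, 7.08, 6.91 and 6.94 in LIF, and was 1.42-fold higher (0.50 ± 0.19, SD, n = 4 arrays; limma adjusted p = 0.000188). The ratios of the 2 probes did not overlap over the arrays. By the scanner software's log ratio they were 1.21 ± 0.07 for the brighter and 0.97 ± 0.27 for the dimmer probe (SD, n = 4 arrays), and their values overlapped.

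Igfbp7, also called Mac25, encodes a secreted protein of vessel walls and senescent cells that binds IGF weakly, and lies on chromosome 5 (77349240 to 77408045). Its probe A_51_P472292 had log2 signals of 9.92, 10.001, 9.90 and 10.08 in butyrate, against 8.72, 8.87, 8.68 and 8.66 in LIF. The groups were well apart, and every array gave a ratio above 1.13. It was 2.37-fold higher in butyrate (1.24 ± 0.12, SD, n = 4 arrays; limma adjusted p = 2.11e-07), and 2.47-fold by the scanner software's log ratio.

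Igfbp4 and Igfbp6 were higher by small amounts from dim signals. Igfbp4, on chromosome 11 (99040005 to 99052655), encodes a binding protein that blocks IGF until the protease PAPP-A cleaves it. Its probe A_52_P257502 had log2 signals of 7.38, 7.37, 7.55 and 7.48 in butyrate, against 6.84, 6.98, 6.69 and 6.89 in LIF, 1.51-fold higher (0.60 ± 0.19, SD, n = 4 arrays; limma adjusted p = 7.58e-05). Probe A_51_P398971 gave 0.46 ± 0.16 (SD, n = 4 arrays; limma adjusted p = 0.000162), and the values of the 2 probes overlapped. Igfbp6, on chromosome 15 (102144186 to 102149512), encodes a binding protein that prefers IGF2. Its probe A_51_P374571 had log2 signals of 7.12, 7.12, 7.24 and 7.37 in butyrate, against 6.59, 6.86, 6.63 and 6.64 in LIF, 1.45-fold higher (0.53 ± 0.20, SD, n = 4 arrays; limma adjusted p = 0.00019). By the scanner software's log ratio these 3 probes were 2.89-fold, 2.28-fold and 2.77-fold higher in butyrate.

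**Figure D2:**
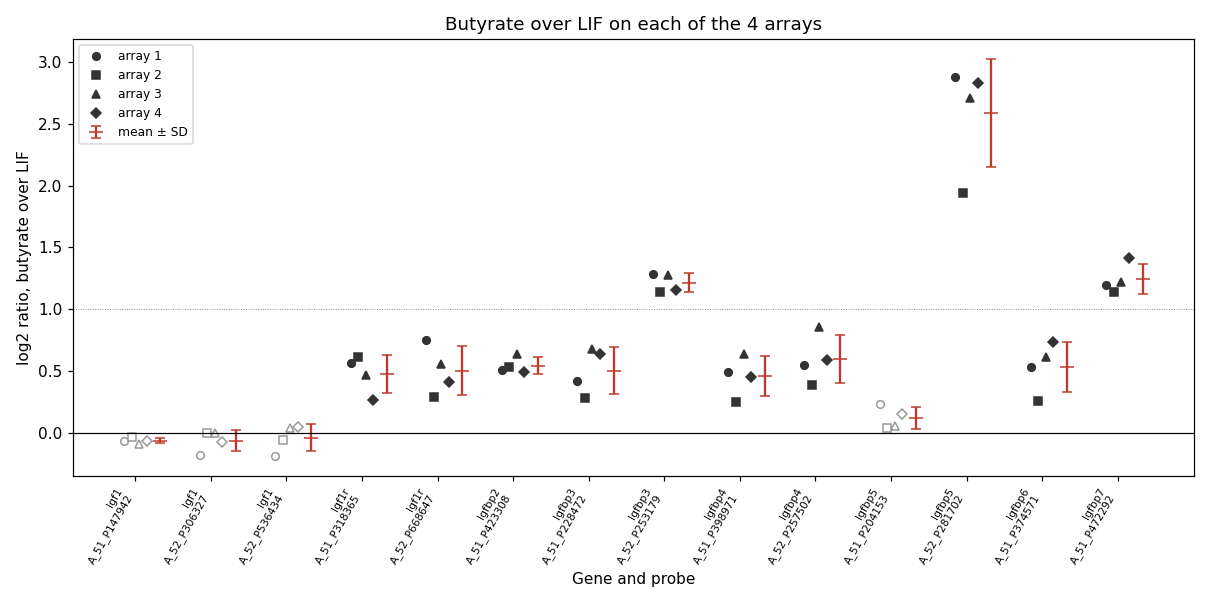
Log2 ratio of butyrate over LIF (vertical axis) of each probe of the IGF axis (horizontal axis) on the 4 arrays, with the mean and SD in red and open symbols for probes that were not tested. Igfbp5 probe A_52_P281702 lies between 1.94 and 2.88, with array 2 lowest, while the other tested probes lie between 0.25 and 1.42; the dotted line marks a 2-fold difference.

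The sizes, but not the directions, depended on the processing. The probes of Igfbp2, Igfbp3 (A_52_P253179) and Igfbp7, all bright, had ratios of 0.50, 1.21 and 1.31 by the scanner software, near the reported ones. The dim probes of Igfbp4, Igfbp5, Igfbp6 and Igf1r gave larger ratios by that route, and so did the authors' value table, at 4.92 for Igfbp5 and 1.45 for Igfbp6. The order of the genes changed with it: by the scanner software Igf1r probe A_52_P668647 (1.95), Igfbp4 probe A_52_P257502 (1.53) and Igfbp6 (1.47) lay above Igfbp7 (1.31) and Igfbp3 probe A_52_P253179 (1.21), and the authors' value table gave the same order for these probes. With the loess replaced by centring on each array's median, the median over all tested probes was 0.37 and the median of the axis 0.90, so the axis again lay above the rest. With that centring the bright probes of Igfbp2, Igfbp3 (A_52_P253179) and Igfbp7 also had larger ratios than reported, at 1.03, 1.81 and 1.83. On array 2 the axis probes had a median ratio of 0.46, beside 0.56, 0.66 and 0.61 on arrays 1, 3 and 4, and 8 of the 10 probes had their lowest ratio there. Without replicate 2 all 10 still passed.

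**Figure D3:**
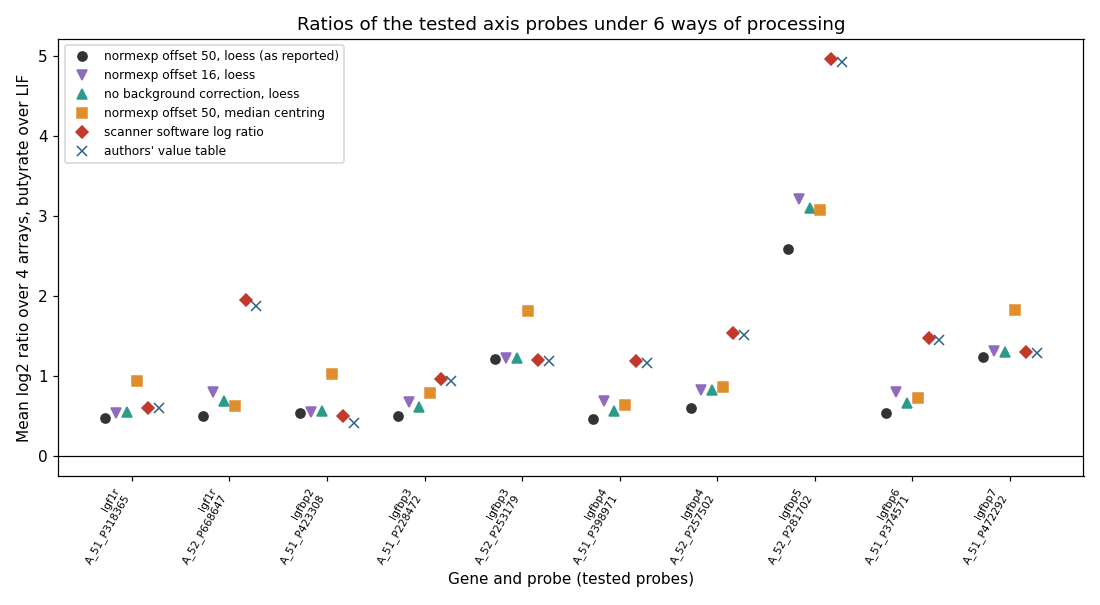
Mean log2 ratio of butyrate over LIF over 4 arrays (vertical axis) of the 10 tested probes of the IGF axis (horizontal axis) under 6 ways of processing. All values lie above 0, and the scanner software and the authors' value table put Igfbp5 at 4.96 and 4.92, against 2.59 as reported.

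Other ligands, receptors and relatives of the binding proteins did not share one direction. For these and the following lists the brightest tested probe stood for its gene. Of all 17190 genes, 41.3% were called higher and 33% lower (74.3% in either direction), and their median log2 ratio was 0.03. Among the list genes named below with a ratio as higher or lower, Igfbpl1 had the highest adjusted p (limma, 0.0159). Of 8 genes tested, 2 were higher, 2 lower and 4 did not pass (median 0.02). Igf2, the ligand of the embryo, on chromosome 7, had log2 signals of 11.58, 11.55, 11.62 and 11.71 in butyrate, against 9.68, 9.81, 9.67 and 9.77 in LIF. It was 3.68-fold higher in butyrate (1.88 ± 0.10, SD, n = 4 arrays; limma adjusted p = 1.97e-08). Kazald1, a secreted protein with an IGFBP-like domain, was also higher (0.52 ± 0.13). Igfals, the subunit that stabilises IGF in blood, was lower (−0.73 ± 0.29), as was Igfbpl1 (−0.17 ± 0.12), which lay at 0.04 with centring on the median. Igf2r, the receptor that removes IGF2, had a ratio of 0.19 ± 0.28 and Insr, the insulin receptor, of 0.07 ± 0.18, and neither passed (limma adjusted p = 0.0977 and 0.364). The Insr probe is listed as D630014A15Rik and was assigned to Insr through the reference. Igfbp1 and Ins1 were too dim to test. Of 3 RNA-binding proteins that bind Igf2 transcripts, Igf2bp1 (0.86 ± 0.06) and Igf2bp3 (0.57 ± 0.07) were higher and Igf2bp2 did not pass (−0.04 ± 0.11).

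Secreted relatives and proteases of the binding proteins were mostly higher. Of 5 CCN and related proteins tested, which share an N-terminal domain with IGFBPs or were once grouped with them, 4 were higher and none lower (median 1.74). Esm1, one of the 4, met the filter through butyrate only, with no LIF array well above background. Ccn4 was 5.20-fold (2.38 ± 0.25), Ccn2, a matrix signal also known as Ctgf, 4.54-fold (2.18 ± 0.04) and Ccn1, also known as Cyr61, 3.34-fold higher (1.74 ± 0.08, SD, n = 4 arrays each). Of 10 genes of IGFBP proteases and their inhibitors, 7 were higher and 1 lower (median 0.71). Plau, one of the 7, likewise met the filter through butyrate only. The metalloproteinases Mmp2 (2.65-fold, 1.41 ± 0.08) and Mmp9 (2.36-fold, 1.24 ± 0.25) and the membrane protease Adam9 (2.18-fold, 1.12 ± 0.11) were higher, and Stc2, an inhibitor of PAPP-A, was 1.89-fold lower (−0.92 ± 0.12). Pappa, which encodes PAPP-A, had a ratio of 1.10 ± 0.36 and passed (limma adjusted p = 4.37e-05), though it was well above background on 1 array in LIF; it was named after its values were seen.

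Adaptors and kinases that carry the signal inside the cell went both ways. Of 14 receptor substrates and adaptors, 8 were higher and 4 lower (median 0.27). Irs1, the substrate that links the receptors to PI3K, had log2 signals of 10.12, 9.96, 9.89 and 10.04 in butyrate, against 7.92, 8.12, 7.81 and 7.89 in LIF, and was 4.19-fold higher (2.07 ± 0.16, SD, n = 4 arrays; limma adjusted p = 3.99e-08). Ptpn11, the phosphatase SHP2 (2.25-fold, 1.17 ± 0.07), and Socs1 (1.83-fold, 0.87 ± 0.08) were also higher. Grb10, an adaptor that inhibits the insulin and IGF receptors, had log2 signals of 10.25, 10.22, 10.12 and 10.25 in butyrate, against 11.97, 11.84, 11.93 and 11.86 in LIF, and was 3.23-fold lower (−1.69 ± 0.09, SD, n = 4 arrays; limma adjusted p = 3.05e-08). Socs3 (3.02-fold) and Socs2 (2.39-fold), feedback inhibitors of cytokine receptors and known targets of LIF signalling or growth hormone, were lower as well (−1.59 ± 0.05 and −1.26 ± 0.08). With the mean of all probes of a gene, Irs1 had a ratio of 1.06 and Grb10 of −0.75, and both passed.

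Of 18 genes of PI3K, AKT and FOXO, 10 were higher, 3 lower and 5 did not pass (median 0.16). Foxo1, one of the 10, had 1 other probe that passed in the opposite direction. Pik3r3, a regulatory subunit of PI3K (2.34-fold, 1.22 ± 0.10), and Akt1 (1.78-fold, 0.84 ± 0.07) were higher. Inppl1, the phosphatase SHIP2 (−0.82 ± 0.13), Akt2 (−0.40 ± 0.09) and Phlpp1 (−0.17 ± 0.11) were lower, but with centring on the median Inppl1 did not pass (−0.23) and Akt2 and Phlpp1 lay at 0.20 and 0.15. Of 15 genes of the mTOR branch, 5 were higher and 7 lower, none by 2-fold (median 0.09). These calls rest on the brightest probe: Rictor and Eif4ebp1 had 1 other probe each, and Tsc1 had 2, that passed in the opposite direction. Rptor, the mTORC1 scaffold (0.60 ± 0.05), and the S6 kinases Rps6kb1 (0.46 ± 0.06) and Rps6kb2 (0.18 ± 0.07) were higher. Sesn2, a stress-induced inhibitor of mTORC1 (−0.62 ± 0.08), Eif4ebp2 (−0.43 ± 0.15) and Mtor (−0.32 ± 0.18) were lower, but with centring on the median Sesn2 did not pass (−0.08) and Eif4ebp2 and Mtor lay at 0.16 and 0.27.

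**Figure D4:**
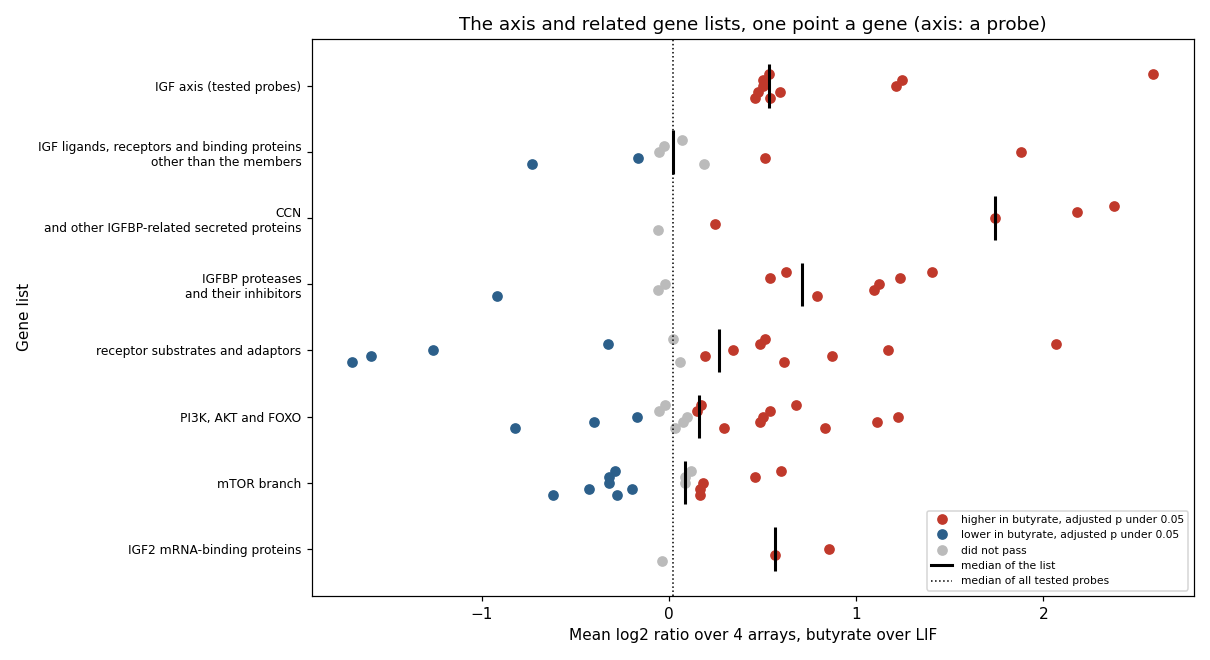
Mean log2 ratio of butyrate over LIF (horizontal axis, loess scale) of the tested probes of the IGF axis and of the genes of 7 related lists (vertical axis), with the median of each list as a black bar and the median of all tested probes dotted. The 10 axis probes all lie at 0.46 or above, while the mTOR branch lies between −0.62 and 0.60; of the genes named in the text, Akt2, Phlpp1, Mtor, Eif4ebp2 and Igfbpl1 change sign on the median-centred scale, and genes not named were not compared there.

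The labelled cell type was checked against its markers. All 10 markers of undifferentiated embryonic stem cells were well above background in every butyrate and LIF sample. In butyrate 8 were lower and 1 higher. Dppa5a, one of the 8, was saturated on 4 arrays in both groups, so its difference was not reliably measured. Pou5f1 (−1.57 ± 0.22), Sox2 (−1.24 ± 0.09), Esrrb (−1.58 ± 0.05) and Klf4 (−1.39 ± 0.15) were lower, and Nanog was higher (0.23 ± 0.05). Lists of markers of other cell types were counted in the same way. Of 19 fibroblast markers tested, 16 were higher and 2 lower (median 0.96), and their summed normalized signal was 30340 to 33520 in butyrate, against 10740 to 12350 in LIF. Acta2, the brightest of them, had mean log2 signals of 13.95 in butyrate and 12.85 in LIF and weighs heavily in both sums. It was named after its values were seen. Col1a1 (4.15 ± 0.16), Postn (3.22 ± 0.47) and Col5a1 (1.86 ± 0.06) were higher. Thy1 (−0.18 ± 0.06) and Twist1 (−0.24 ± 0.07) were lower, but with centring on the median Thy1 lay at 0.40 and Twist1 did not pass (−0.02). Col6a1, Dcn and Prrx1 were not well above background on any array in LIF, so these 3 of the 16 met the filter through butyrate only, and Lum was too dim to test.

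Of 15 markers of extraembryonic endoderm, 13 were higher and 1, Hnf4a (−0.15 ± 0.09), lower. With centring on the median Hnf4a did not pass (−0.19). The summed signal of the 15 markers was 23550 to 25470 in butyrate, against 8061 to 8289 in LIF. Sparc, the brightest of them, had mean log2 signals of 13.57 in butyrate and 11.63 in LIF and weighs heavily in both sums. Gata4 did not pass (0.01 ± 0.06, limma adjusted p = 0.875) and was well above background on 1 array in LIF. It was named after its values were seen. Col4a1 (2.70 ± 0.11), Col4a2 (2.31 ± 0.07) and Sparc (1.94 ± 0.03) were higher, Ttr was too dim to test and Afp, one of the 13, met the filter through butyrate only, with no LIF array well above background. All 14 trophoblast markers tested were higher, led by Esx1 (3.14 ± 0.22), Krt19 (2.93 ± 0.09) and Cdx2 (2.77 ± 0.45), with sums of 156300 to 161800 in butyrate, against 37540 to 41260 in LIF. The saturated probes of Krt8 and Krt18 made up most of the butyrate sums; without them the sums were 53930 to 58300 in butyrate, against 10660 to 11710 in LIF. Elf5, one of the 14, likewise met the filter through butyrate only, and Tpbpa was too dim to test. Endothelial markers went both ways, 3 higher and 2 lower of 7, with Flt1 (2.07 ± 0.14) and Cd34 (0.94 ± 0.09) higher and Vwf (−1.59 ± 0.27) and Tek (−0.39 ± 0.07) lower, Tek not passing with centring on the median (−0.05). Cdh5, the third higher gene, was well above background in butyrate only and was at least 1.31-fold higher in butyrate (limma adjusted p = 0.0003). This bound equals the fold from its mean ratio. The sums of the list were 3240 to 3322 in butyrate and 2231 to 2482 in LIF. The part of any of these cell types in the ratios of the IGF axis was not tested, and in these bulk samples a change in the number of cells of a type and a change in RNA per cell cannot be told apart.

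Igfbp3 and Igfbp4 lie on chromosome 11, whose 1249 tested genes had a median log2 ratio of 0.21, beside 0.01 for the other autosomes. The part of this shift in their ratios was not tested. For chromosomes 1, 5, 7 and 15, which hold the other measured genes of the axis, the medians were 0.03, −0.01, −0.06 and −0.06. The genes whose ratios over the 4 arrays were nearest to those of Igfbp5 were Col8a1, a collagen of vessel walls, Timp2, an inhibitor of metalloproteinases, and Alox15, a lipoxygenase, with mean absolute differences of 0.13, 0.17 and 0.17 in log2 ratio. For Igfbp4 probe A_51_P398971, the lowest ratio of the tested probes, they were Lama4, a laminin chain, Olfml2b and Foxf2, a forkhead factor, with differences of 0.01, 0.02 and 0.02.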

How the data were processed

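A scan covers both channels, so the 8 deposited scanner files were 4 distinct ones, made with Agilent Feature Extraction 9.1 per the submitters' processing notes. For every spot they hold, as deposited, the intensity of each channel and, per the file headers, a log10 ratio of Cy5 over Cy3 after background subtraction and dye normalization. The authors' value table holds log2 values; each column follows the processed signal of its own channel (r of 0.9996 or more) with a median of 6.487, so scale and direction are settled and the columns are quantile-normalized. No genome build is given in the sources used.

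Background was corrected by normexp (offset 50) on mean signal and median background, followed by loess within arrays (control spots had weight 0), in limma 3.58.1 under R 4.3.3. The offset understates folds of dim probes. Outlier spots (14 over the 4 arrays) were left out, and the spots of each probe averaged. Log2 signals per sample come from the channels after loess and Aquantile. Where no LIF array was well above background, "at least" sets the butyrate mean against, per array, the higher of the probe's own LIF signal and the lowest signal well above background. A probe was tested if it was well above background on at least 3 arrays in either channel. The 4 log2 ratios were tested against 0 with limma (lmFit, eBayes) and Benjamini-Hochberg adjustment over 25661 probes; 18538 passed (72.2%), 10195 higher and 8343 lower. Of the non-control spots, 62.7% to 63.9% were well above background in butyrate and 57.9% to 61.2% in LIF. The number of arrays limits the precision.

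Testing ratios within arrays makes the array the block. Samples of one number deviated together from their groups' means, with correlations across probes of 0.25, 0.1516, 0.3029 and 0.2088; they share an array, and whether cultures were paired is not known. All arrays shared a slide and a scan time, so no batch could be tested.

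The members, the lists and the tests were chosen with earlier results of these data known. Named list genes are up to 3 higher and 3 lower of each list with the largest ratio among those that passed with the same sign on 4 arrays, and Pou5f1, Sox2 and Nanog; a gene that this rule picks is not reported here. Genes nearest to a member are the 3 with the smallest mean absolute difference of log2 ratios over the arrays. Probes were named by accession, symbol or synonym in the reference table of GRCm38.p6; 8455 of 41174 kept the name in the file. The test step alone was run on simulated log2 ratios, which does not cover background correction, loess or dye. Alternatives changed the background correction, normalization, filters, combination of probes, variance model, block, replicates and source of values. Figures used matplotlib 3.10.9 in Python 3.11.15.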

Additional observations from a re-analysis of the deposited data

Results flagged for a closer look

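In groups of 4 values, a value far from the other 3 relative to the group's range is noted here; chance gives about 1 in 20 such groups, and 5 of 95 groups were found. The LIF log2 signal of Igfbp5 probe A_52_P281702 was 7.39 in replicate 2, against 6.56 to 6.65 in the other LIF samples, while its unprocessed signal (51.2) lay within theirs. Among genes of the lists, the log2 ratios of Postn (2.51) and Mmp9 (0.86) on array 2 stood apart, whereas by the scanner software's log ratio array 2 lay among the others for both (5.03 and 2.20). The ratio of Sox2 stood apart on array 1 (−1.11). The LIF log2 signal of Igf1 probe A_52_P536434 in replicate 1 was 6.39, in a probe not well above background.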

How the results depend on the processing

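Each of the 10 tested probes of the IGF axis passed with a higher signal in butyrate under all 16 alternatives that keep probes apart, and with probes combined by gene 7 of 7 genes did. Their highest adjusted p (limma) was 0.00644, for Igf1r probe A_51_P318365. With no filter on dim probes 11 of 14 passed, the further one being Igfbp5 probe A_51_P204153. The median log2 ratio of the tested axis probes, 0.54, became 0.68 with no background correction and 0.80 with a normexp offset of 16. It was 1.25 with the scanner software's log ratio, 0.90 with centring on the median and 1.24 with the authors' value table. It ranged from 0.51 to 0.60 with each replicate left out. Combining by gene followed the reference symbols, so Igf1r then took in the 2 probes that were not members. With the brightest probe of each gene the median was 0.71, the ratio of the A330103N21Rik probe, which then stood for Igf1r. With no replicate block 10 axis probes and 18038 probes in all passed, with a random replicate block 10 and 18674, so neither changed a call in the axis. The array is the block, and the fits keep the same ratios.

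Of all probes that passed, 55% were higher in butyrate, against 92% with centring on the median (14222 of 15464), 46.3% with the scanner software and 44.9% with the authors' value table. With centring on the median 6 named genes called lower changed sign: Akt2 (0.20), Eif4ebp2 (0.16), Igfbpl1 (0.038), Mtor (0.27), Phlpp1 (0.15) and Thy1 (0.40). The median of all tested probes lay at 0.37 there; the cause of these sign changes was not tested. Of 53 named list genes, 14 moved by over 1.5 times with the mean of probes per gene, among them Irs1 (1.06), Grb10 (−0.75), Akt1 (0.44), Pik3r3 (0.44), Col5a1 (0.98) and Esrrb (−0.855), 12 with the scanner software and 12 with the authors' value table; none changed sign there. Igfbpl1 did not pass without replicate 1 or 3 (−0.16 and −0.12), nor Hnf4a without replicate 3 (−0.11). Folds of probes near background, such as Igfbp5 in LIF, depend on the treatment of background, and a dye bias shared by the arrays cannot be seen in this design.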
